A study of Mus musculus with 18 samples.

Results

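Timd2, Pemt, Sord, Upp1, Zmpste24 and Guca1a were among the 13 genes with the smallest p-values when mouse embryos null for Oct4 were compared with wild type embryos at E3.75, the blastocyst stage. These 6 genes, of 8202 measured at 1 or more stages, were chosen on that comparison and are described here at every stage, and their values at E3.75 are therefore given with no test. Whole embryos of the CD1 strain were either Oct4 +/+ (called wild type below) or Oct4 -/- (called null), and were collected at E2.5 (before the blastocyst), E3.75 and E4.5 (late blastocyst). No other allele and no treatment is given in the labels, and how the null allele was made is not given in the sources used here. There were 3 libraries per genotype and stage, 18 in all, from 3 embryos per group according to the series' design text. The series title states the aim as finding the genes that depend on Oct4 in the embryo.

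Oct4, encoded by Pou5f1, is a POU domain transcription factor of the early embryo that is needed for the inner cell mass to remain pluripotent. POU factors bind DNA at an octamer sequence, often beside a partner such as Sox2. In the blastocyst the outer layer becomes trophectoderm, and the inner cells become epiblast and primitive endoderm. The 6 genes belong to different pathways. Timd2 encodes a receptor on the cell surface that takes up heavy-chain ferritin, an iron store. Pemt encodes an enzyme of endoplasmic reticulum membranes that methylates phosphatidylethanolamine to phosphatidylcholine. Sord encodes sorbitol dehydrogenase, which oxidises sorbitol to fructose in the polyol pathway. Upp1 encodes uridine phosphorylase, which splits uridine into uracil and ribose 1-phosphate. Zmpste24 encodes a zinc protease of the endoplasmic reticulum and inner nuclear membrane that trims farnesylated proteins and prelamin A. Guca1a encodes a calcium sensor that regulates guanylate cyclases in photoreceptors of the retina.

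Levels are in CPM (reads scaled to a library total of 1000000, mostly near the 3′ ends of transcripts), from 364936 to 1922432 reads per library. By median the null libraries were deeper at all stages. In order of stage their medians were 1917754, 1375610 and 1314657 reads, and wild type medians were 916720, 576078 and 543033. In each group the third library resembled a weighted mix of the other two. Its variance around that mix was 1.11 to 1.31 times what sampling gives, whereas the first and second libraries had 1.31 to 2.53 times. If the third libraries are not independent, standard errors and p-values from all libraries are too small, and values from the first 2 libraries of each group are given beside the results for that reason. Every null library had less Pou5f1 than the wild type libraries of its stage. In order of stage, the mean ± SD (n = 3) was 1875 ± 194, 509 ± 115 and 231 ± 45.9 CPM in wild type embryos, and in null embryos it was 968 ± 40.1, 258 ± 33.3 and 111 ± 26.9 CPM. The sources used here do not say whether the counted 3′ end lies outside the deleted part of the gene. Each difference below is null minus wild type on the log2(CPM + 1) scale, fitted with limma.

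**Figure D1:**
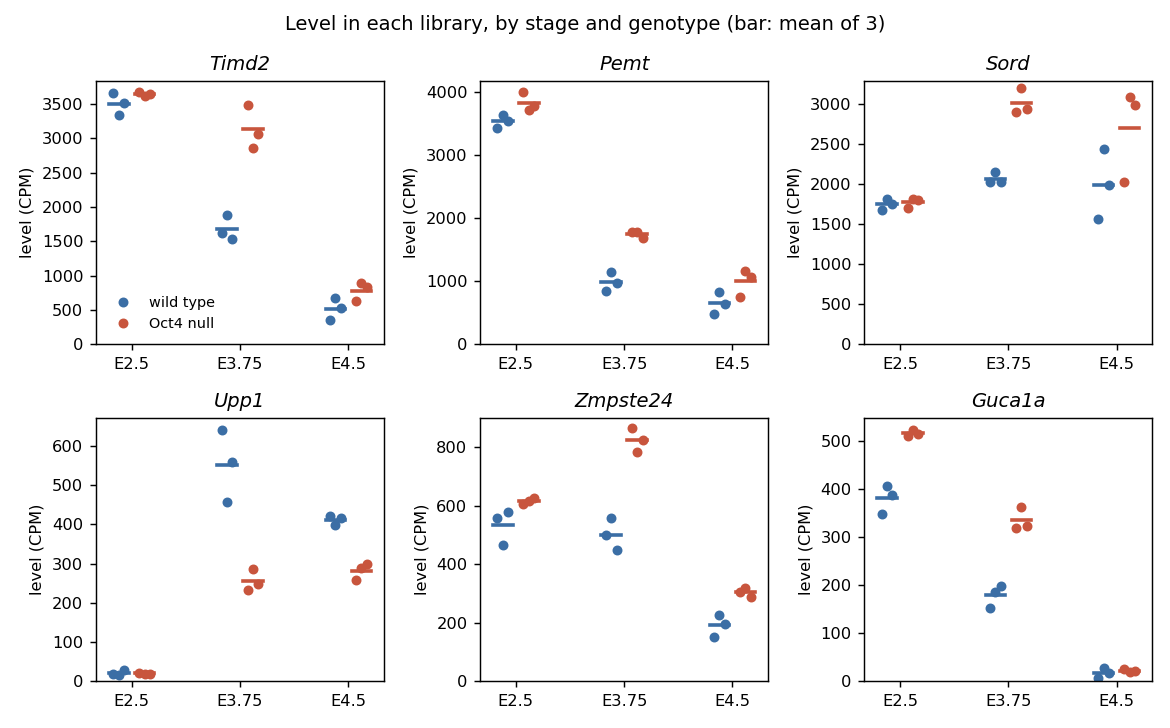
Level in CPM of each gene in the 18 libraries, by stage and genotype, with points for libraries and bars for the mean of 3. At E3.75 the null points of 5 genes lie above all wild type points, and those of Upp1 lie below.

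At E3.75, Timd2, Pemt, Sord, Zmpste24 and Guca1a had higher levels in each of the 3 null libraries than in the highest wild type library, and Upp1 had lower levels than in the lowest. The difference of Timd2 was 0.90, that of Pemt 0.83, that of Sord 0.54, that of Zmpste24 0.72, that of Guca1a 0.91 and that of Upp1 -1.11. These embryos are mixtures of cells, so fewer cells of a type and less RNA per cell cannot be told apart. Across all genes at E3.75, 8.2% of 6648 passed limma (Benjamini-Hochberg adjusted p under 0.05), 11.4% had all null libraries above the wild type libraries and 15.7% had them below. Nothing is read from these shares about the 6 genes, because the comparison chose them. In the order of p-values Timd2 was 1st, Pemt 2nd, Upp1 3rd, Sord 6th, Zmpste24 9th and Guca1a 13th. The genes at the places between were Psat1, Alppl2, Tubb5, Lgals1, Dab2, Lgals4 and Atp5g3. The next gene after Guca1a was Trim43c, with a wild type mean of 358 CPM, a null mean of 583 CPM and a difference of 0.71. Trim43c belongs to a family of similar copies, among which reads could be split.

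Timd2 (ENSMUSG00000040413, chromosome 11), the ferritin receptor gene, had levels of 3657, 3345 and 3521 CPM in the wild type libraries of E2.5 and 3671, 3626 and 3650.1 CPM in the null libraries. The genotypes overlapped at this stage. In wild type libraries of E3.75 it stood at 1621, 1886 and 1539.7 CPM, while null libraries had 3483, 2863 and 3062 CPM. The lowest null library was thus above the highest wild type library. Levels at E4.5 were 352, 667 and 525 CPM in wild type libraries A, B and C, whose columns carry no replicate number, and 628, 885 and 829 CPM in null libraries 1, 2 and 3. Wild type B lay above null 1, so the groups overlapped. By group mean the order ran from null and wild type E2.5 through null E3.75, wild type E3.75 and null E4.5 to wild type E4.5. Within that order null E3.75 overlapped wild type E2.5, while wild type E3.75 overlapped neither of its neighbours.

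Pemt (ENSMUSG00000000301, chromosome 11), which encodes the phosphatidylethanolamine methyltransferase, was at 3429.6, 3642 and 3546 CPM in wild type and 3999, 3709 and 3784 CPM in null libraries of E2.5. All 3 null libraries were above the wild type libraries, by a small margin. Its level was 850.0, 1141 and 977 CPM in wild type and 1777, 1783 and 1679.8 CPM in null libraries of E3.75, with a wide gap between the groups. The libraries of E4.5 held 481, 836 and 638 CPM in wild type and 748, 1163 and 1074 CPM in null embryos, with wild type B above null 1. Both groups of E2.5 were highest, null E3.75 came next, and null E4.5 and wild type E3.75 overlapped, with means of 995 and 989 CPM. Wild type E4.5 was lowest and overlapped null E4.5.

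Sord (ENSMUSG00000027227, chromosome 2), the sorbitol dehydrogenase gene, had nearly equal levels in both genotypes at E2.5, which were 1679, 1813 and 1751 CPM in wild type libraries, with null libraries at 1696, 1814 and 1802 CPM. Levels at E3.75 were 2029, 2151 and 2019 CPM in wild type and 2898, 3202 and 2932 CPM in null libraries, which did not overlap. At E4.5 they were 1559.8, 2431 and 1981 CPM in wild type and 2019.5, 3088 and 2986 CPM in null libraries. Null 1 of E4.5 lay among the wild type libraries, and null 2 and null 3 lay above them. Sord varied least of the 6 between wild type stages, and each group overlapped its neighbours in the order null E3.75, null E4.5, wild type E3.75, wild type E4.5, null E2.5 and wild type E2.5.

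Upp1 (ENSMUSG00000020407, chromosome 11), the uridine phosphorylase gene, was near the lower limit of the table at E2.5, where it had 13 to 36 reads per library. It was at 18.5, 15.0 and 26.8 CPM in wild type and 21.3, 18.7 and 17.7 CPM in null libraries, which overlapped. Wild type libraries of E3.75 reached 641, 457 and 561 CPM, whereas null libraries reached 232, 285 and 248 CPM. The wild type mean at E3.75 was 27.5 times that at E2.5. At E4.5 the level was 422, 397 and 415 CPM in wild type and 258, 289.8 and 299 CPM in null libraries, again without overlap. The null groups of E3.75 and E4.5 overlapped each other, and both lay below the wild type groups of those stages and above all libraries of E2.5.

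The tables list 1 transcript per gene, and for Upp1 it is ENSMUST00000020677 at E3.75 and ENSMUST00000164791 at E2.5 and E4.5. In the mouse annotation GENCODE M21 (build GRCm38) their 3′ ends lie 3 bases apart. For the other 5 genes the listed transcript was the same at every stage. No other gene of that annotation lies within 1000 bases of a listed 3′ end of the 6 genes. The 250 bases before start sites 2 and 3 of Upp1, of the 3 in RefSeq, are shown to let the start regions be compared. They are from RefSeq (GRCm38.p6), at chr11:9117853-9118102 and chr11:9118257-9118506 on the plus strand, with no capitals because neither holds the octamer. The first sequence below is the window of start site 2 and the second that of start site 3. These windows carry no transcript name, so the transcript given in each label below is an assignment that was not checked. Nothing is read from them about which start is used at a stage.
Upp1, start of the transcript listed at E3.75: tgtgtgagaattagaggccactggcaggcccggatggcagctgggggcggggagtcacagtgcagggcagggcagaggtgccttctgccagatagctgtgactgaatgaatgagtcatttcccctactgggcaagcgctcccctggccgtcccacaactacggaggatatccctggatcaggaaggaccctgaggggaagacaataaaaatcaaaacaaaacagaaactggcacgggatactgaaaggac
Upp1, start of the transcript listed at E2.5 and E4.5: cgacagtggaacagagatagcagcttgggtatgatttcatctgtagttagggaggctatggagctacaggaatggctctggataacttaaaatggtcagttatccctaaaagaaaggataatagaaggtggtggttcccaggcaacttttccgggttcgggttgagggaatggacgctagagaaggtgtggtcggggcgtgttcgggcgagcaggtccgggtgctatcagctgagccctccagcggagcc

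Zmpste24 (ENSMUSG00000043207, chromosome 4), the prelamin A protease gene, was at 557, 464 and 579 CPM in wild type and 606, 616 and 628 CPM in null libraries of E2.5. The null libraries were all above the wild type libraries, the nearest by less than the range of the wild type group. Libraries of E3.75 held 498, 559 and 448 CPM in wild type and 866, 784 and 825 CPM in null embryos. At E4.5 the level was 149, 227 and 194 CPM in wild type and 304, 319 and 288 CPM in null libraries. The null libraries thus lay above the wild type libraries at each stage, of which E3.75 was the one that chose the gene. At E2.5 and E4.5 this was so for 13.6% and 12.2% of all genes, and limma did not pass Zmpste24 (adjusted p = 0.244 and 0.136). Its highest group was null E3.75, followed by null E2.5, the overlapping wild type groups of E2.5 and E3.75, null E4.5 and wild type E4.5.

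Guca1a (ENSMUSG00000023982, chromosome 17), known for its part in the retina, had its highest levels at E2.5. There they were 348, 406 and 387 CPM in wild type and 509.6, 522 and 514 CPM in null libraries. All null libraries were above all wild type libraries. At E3.75 they were 152, 184 and 198 CPM in wild type and 318, 363 and 323 CPM in null libraries, again without overlap. By E4.5 Guca1a was down to 5.52, 27.1 and 15.6 CPM in wild type and 24.7, 19.0 and 20.1 CPM in null libraries. These values rest on 3 to 27 reads per library, with 3 reads in wild type A, and the genotypes overlapped. The null group of E3.75 overlapped the wild type group of E2.5.

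Of the 250 bases before the RefSeq start sites of the 6 genes (10 start sites, GRCm38.p6), 1 window held the octamer core ATGCAAA, searched on both strands. It is that of Guca1a at chr17:47400607-47400856 on the minus strand, with the core beginning 128 bases before the start. The sequence is shown because ATGCAAA is part of the octamer that POU factors bind, and the capitals mark it.
Guca1a, 250 bases before the start: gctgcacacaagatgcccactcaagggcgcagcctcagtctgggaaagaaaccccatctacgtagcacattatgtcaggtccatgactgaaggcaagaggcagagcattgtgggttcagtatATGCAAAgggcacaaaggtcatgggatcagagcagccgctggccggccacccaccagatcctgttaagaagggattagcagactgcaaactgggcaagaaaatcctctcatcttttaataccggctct
The core occurred in 4.12% of 32851 such windows of all genes, and the full octamer ATGCAAAT in 1.60% of them and in no window of the 6 genes. A match describes the letters and is not a binding site, and a window without it says nothing about binding. The GC box GGGCGG, found in 32.7% of all windows, occurred in windows of Sord and Upp1.

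At E2.5 none of the 6 genes passed limma over the 7082 genes of that stage, of which 0.593% passed. Guca1a came nearest, with a difference of 0.44 (95% interval 0.24 to 0.64) and an adjusted p of 0.0558. It passed with the edgeR quasi-likelihood test on reads (adjusted p = 0.0305), with DESeq2 (adjusted p = 0.00648) and in limma with TMM factors (adjusted p = 0.0479). It also passed in limma without wild type 1 (adjusted p = 0.0220) or wild type 2 (adjusted p = 0.0101). In that order these settings called 179, 232, 99, 390 and 773 of all genes, against 42 in the main limma fit. In limma with the first 2 libraries of each group the difference of Guca1a was 0.46 and its adjusted p 0.667. Zmpste24 differed by 0.21 (adjusted p = 0.244), Pemt by 0.11 (adjusted p = 0.280), Timd2 by 0.06 (adjusted p = 0.595), Sord by 0.02 (adjusted p = 0.893) and Upp1 by -0.02 (adjusted p = 0.972) in limma. The interval of Timd2 ran from -0.07 to 0.18 and that of Sord from -0.12 to 0.16. For Upp1 the interval was wide, from -0.68 to 0.63, at its low level. Over the alternatives Upp1 ran from -0.21 to 0.25 and Sord from -0.01 to 0.05. The null libraries of 3 genes, Pemt, Zmpste24 and Guca1a, lay above all wild type libraries, as in 13.6% of all genes, and those of none lay below, as in 14.1%. At an unadjusted p under 0.05 in limma there were 2 of the 6, Guca1a and Zmpste24, beside 1444 of all 7082 genes.

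**Figure D2:**
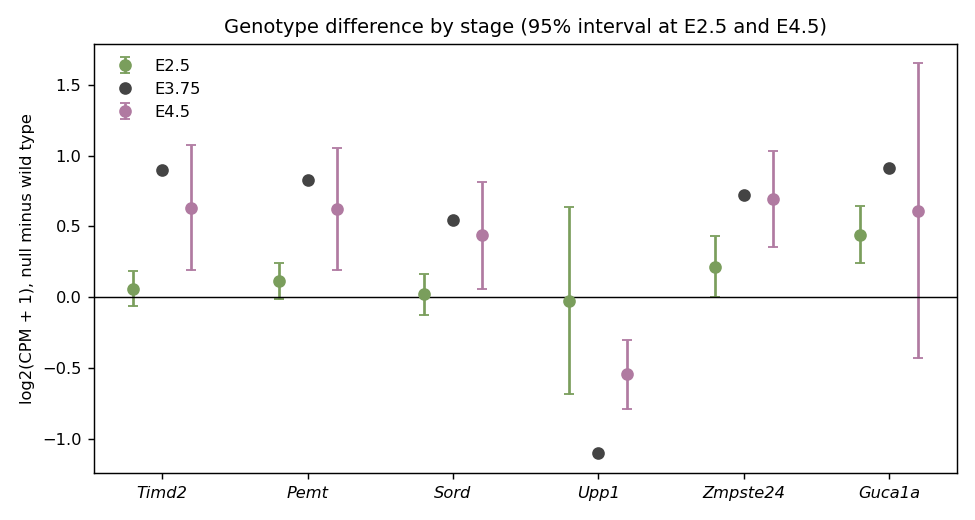
Difference of each gene between null and wild type embryos, in log2(CPM + 1), at the 3 stages, with the 95% interval at E2.5 and E4.5. The points at E3.75 have no interval because the genes were chosen on them, and at E4.5 the intervals of all genes but Guca1a exclude 0 before adjustment.

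At E4.5 the 6 genes had differences of the same sign as at E3.75, but none passed limma, as did 0.0% of 6545 genes. Upp1 differed by -0.55 (95% interval -0.79 to -0.30, adjusted p = 0.125) and Zmpste24 by 0.69 (95% interval 0.35 to 1.04, adjusted p = 0.136). Pemt differed by 0.62 (adjusted p = 0.194), Timd2 by 0.63 (adjusted p = 0.197), Sord by 0.44 (adjusted p = 0.272) and Guca1a by 0.61 (adjusted p = 0.551). At an unadjusted p under 0.05 there were 5 of the 6, all but Guca1a, and 985 of all genes. Upp1 passed with edgeR (adjusted p = 0.0264), which called 42 genes in all, and Zmpste24 did not (adjusted p = 0.0547). DESeq2 passed 4 of the 6, namely Upp1 (adjusted p = 0.00681), Zmpste24 (adjusted p = 0.0189), Pemt (adjusted p = 0.0356) and Timd2 (adjusted p = 0.0460), and gave no adjusted p for Guca1a. It called 112 genes in all and left 3934 of 6545 without an adjusted p. A single limma fit over all 18 libraries also passed 4, namely Zmpste24 (adjusted p = 0.00722), Timd2 (adjusted p = 0.0198), Pemt (adjusted p = 0.0200) and Sord (adjusted p = 0.0438), but not Upp1 (adjusted p = 0.0631), and called 221 of 5430 genes. That fit takes its variance partly from the E3.75 libraries on which the 6 genes were chosen, so it is not independent of the choice. With the first 2 libraries of each group the adjusted p in limma was 0.832 to 0.864 for the 6 genes.

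Zmpste24 was the gene whose null libraries all lay above the wild type libraries at E4.5, as in 12.2% of all genes, and Upp1 the gene whose null libraries all lay below, as in 9.99%. For Timd2, Pemt and Sord the libraries within a group differed together. Wild type A was lowest and wild type B highest, and null 1 was the lowest of the null libraries. The summed level of 10 trophectoderm markers went the other way, at 17647 CPM in wild type A, 15835 CPM in B and 16912 CPM in C, and at 16880 CPM in null 1, 14612 CPM in null 2 and 15451 CPM in null 3. Null 1 was also the library with the fewest reads and had 1099 CPM of maternal blood and tract markers, against 155 to 369 CPM in the other libraries of E4.5. The genotypes also differed at E4.5 in the sums of 8 epiblast and 8 primitive endoderm markers, without overlap. Here limma passed none of these markers, but it passed 0 of all 6545 genes. With edgeR 2 epiblast and 2 primitive endoderm markers passed as lower, beside 41 lower and 1 higher among all genes. Median log2 differences in limma were -0.33 for the epiblast and -0.63 for the primitive endoderm markers, against 0.06 for all genes. Epiblast sums were 715 to 845 CPM in wild type and 468 to 496 CPM in null libraries. Primitive endoderm sums were 1435 to 1532 CPM in wild type and 1241 to 1407 CPM in null libraries. The part of these differences in the results was not tested. Without null 1, limma passed Pemt (adjusted p = 0.0396), Sord (adjusted p = 0.0441) and Upp1 (adjusted p = 0.0445), and 120 of 6545 genes in all. Without wild type A the difference of Guca1a fell to 0.03, and without wild type B it was 1.09.

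**Figure D3:**
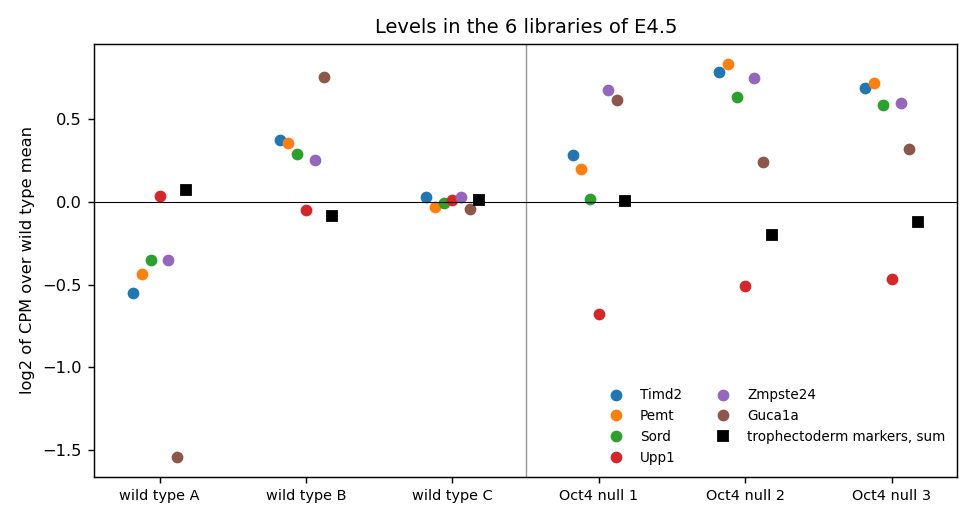
Level of each gene in the 6 libraries of E4.5, as the log2 of its CPM over the mean of the wild type libraries, with the summed trophectoderm markers as black squares. Wild type A is low and wild type B high for every gene but Upp1, and the squares of null 2 and null 3 lie below the others.

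The differences at E2.5 and E4.5 were compared directly, with an interaction term over the 5728 genes in both tables and without any value of E3.75. None of the 6 genes passed in limma, edgeR or DESeq2, and in limma 0.105% of all genes passed. An unadjusted p under 0.05 was found for 3 of the 6 in each of these tools, beside 856 of the 5728 genes in limma, 909 in edgeR and 759 in DESeq2. The change in the difference from E2.5 to E4.5 was 0.58 for Timd2 (95% interval 0.10 to 1.06, adjusted p = 0.252), 0.51 for Pemt (adjusted p = 0.297), 0.48 for Zmpste24 (adjusted p = 0.246), 0.42 for Sord (adjusted p = 0.350) and -0.52 for Upp1 (adjusted p = 0.375). For Guca1a it was 0.17 (95% interval -0.81 to 1.15, adjusted p = 0.901), and it was -0.41 without wild type A of E4.5. Thus a larger difference at E4.5 than at E2.5 was not shown for any of the 6.

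In wild type embryos the 6 genes moved along development in different ways. Stage tables were scaled separately, so these levels are a description with no test. From E2.5 to E3.75 the wild type mean went from 3508 to 1682 CPM for Timd2, from 3539 to 989 CPM for Pemt, from 380 to 178 CPM for Guca1a, and from 20.1 to 553 CPM for Upp1. Sord went from 1748 to 2066 CPM and Zmpste24 from 533 to 502 CPM. The null mean at E3.75 lay between these wild type means for 4 genes, at 3136 CPM for Timd2, 1747 CPM for Pemt, 335 CPM for Guca1a and 255 CPM for Upp1. It lay beyond the wild type level of E2.5 for Zmpste24, at 825 CPM. For Sord, at 3011 CPM, it lay on the other side of the wild type level of E3.75, away from that of E2.5. Of the 485 genes that passed at E3.75 and were in both tables, 260 (53.6%) lay between, 103 (21.2%) beyond and 122 (25.2%) away. These 485 include the 6 genes, whose positions rest on the values that chose them. Positions of the 6 did not change when CPM was recomputed over the 5430 genes in all tables.

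Genes that work beside each of the 6 were taken from 6 lists of 130 genes in all, not counting the 6 themselves, of which 66 were measured at E3.75. There 5 passed limma as higher and 5 as lower in null embryos, beside 239 higher and 306 lower genes among all 6648. With edgeR 6 list genes passed as higher and 3 as lower, beside 300 higher and 252 lower among all genes. With TMM factors in limma the split over all genes was 287 higher and 216 lower. With the first 2 libraries of each group, 1 list gene passed, Npr2, beside 155 of all 6648 genes. Medians below are of the log2 difference, and the median of all genes was -0.04.

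Phosphatidylcholine and phosphatidylethanolamine synthesis, the pathway of Pemt, had 3 higher and 1 lower gene of 15 measured, with a median of 0.00. The genes that rose belong to different branches of the pathway. Chpt1, the choline phosphotransferase of the last step, went from 65.0 ± 11.1 CPM (SD, n = 3) in wild type to 114 ± 29.2 CPM in null embryos (limma adjusted p = 0.0105). Pcyt2, which activates phosphoethanolamine, went from 59.9 ± 5.68 to 99.7 ± 18.5 CPM (limma adjusted p = 0.0135). Ptdss1, which makes phosphatidylserine from phosphatidylcholine, went from 162 ± 3.50 to 217 ± 5.65 CPM (limma adjusted p = 0.0277). Slc44a1, a choline transporter, fell from 149 ± 27.8 to 103 ± 13.2 CPM (limma adjusted p = 0.0403), and did not pass with TMM factors (adjusted p = 0.0609) or with edgeR (adjusted p = 0.0625). edgeR passed Slc44a2, a related transporter, as lower (adjusted p = 0.0470), which limma did not (adjusted p = 0.0520).

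In pyrimidine synthesis and salvage, the pathway of Upp1, 1 gene of 16 was higher and 2 were lower, with a median of -0.16. Uck2, the kinase that turns uridine into UMP and so uses the same substrate as Upp1, rose from 482 ± 70.7 to 663 ± 48.4 CPM (limma adjusted p = 0.00538). Ctps2, a CTP synthase, fell from 30.4 ± 5.22 to 14.1 ± 2.83 CPM (limma adjusted p = 0.0307). Dut, the dUTPase, fell from 207 ± 19.0 to 156 ± 7.30 CPM (limma adjusted p = 0.0442), but did not pass with TMM factors (adjusted p = 0.0754). Uck2 thus moved in the opposite direction to Upp1, which was chosen on this comparison. In limma Uck2 did not pass with the first 2 libraries (adjusted p = 0.0525) or in the fit over 18 libraries (adjusted p = 0.0577).

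Among 14 genes of CAAX prenylation and the nuclear lamina, beside Zmpste24, Sun1 was the 1 that passed, and the median was -0.11. Sun1, an inner nuclear membrane protein that binds prelamin A, rose from 231 ± 6.33 to 327 ± 23.1 CPM (limma adjusted p = 0.00520). Of 11 genes of ferritin and iron uptake, beside Timd2, 1 passed and the median was 0.19. Fth1, the heavy chain of ferritin that Timd2 binds, fell from 3695 ± 172 to 3162 ± 1.56 CPM (limma adjusted p = 0.0150). It did not pass with TMM factors (adjusted p = 0.0715) or with edgeR (adjusted p = 0.0806), and processed copies of this gene could take some of its reads. The gene of this list that edgeR passed was instead higher, Pcbp1, an iron chaperone that loads ferritin, at 2299 ± 21.6 CPM in wild type embryos and 2615 ± 27.9 CPM in null embryos (edgeR adjusted p = 0.0269, limma adjusted p = 0.0502). Of 3 genes measured for calcium sensors and cyclic GMP, the list of Guca1a, 1 passed. Npr2, a receptor guanylate cyclase for C-type natriuretic peptide, fell from 81.8 ± 14.2 to 39.5 ± 12.9 CPM (limma adjusted p = 0.00487), and also passed with the first 2 libraries (adjusted p = 0.00468). No gene of the 7 measured for polyol and fructose metabolism passed beside Sord, with a median of -0.08. Akr1a1, an aldehyde reductase, had the smallest p-value, with a wild type level of 1317 ± 95.2 CPM and a null level of 1132 ± 33.6 CPM (limma adjusted p = 0.0711).

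**Figure D4:**
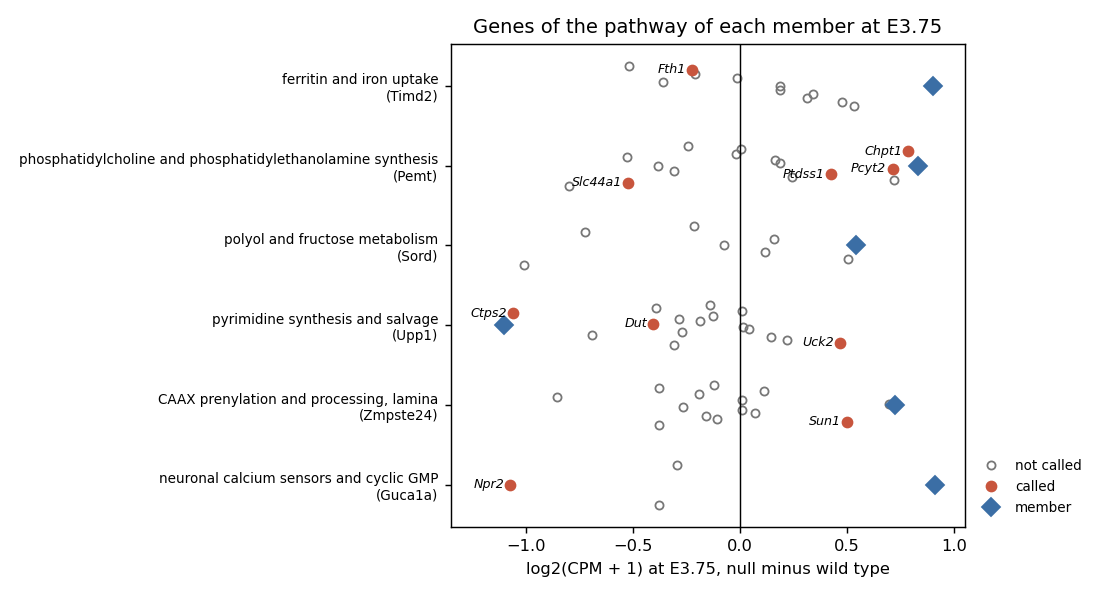
Difference of log2(CPM + 1) at E3.75, null minus wild type, for the genes of 6 pathway lists, with genes that passed limma as filled points and the gene each list was built around as a diamond. The diamonds lie at the edge of their lists, that of Upp1 on the left and the others on the right, and these genes were chosen for that difference.

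With each library of E3.75 left out in turn, Uck2, Sun1 and Npr2 passed in all 6 fits. Fth1 did not pass without wild type 3, null 1 or null 3 (adjusted p up to 0.101), Chpt1 without wild type 3 or null 1 (up to 0.103) and Pcyt2 without null 1 or null 3 (up to 0.104). Ptdss1 failed without wild type 3 or any null library (up to 0.135), and Slc44a1 without wild type 1, wild type 3, null 1 or null 3 (up to 0.192). Ctps2 (up to 0.127) and Dut (up to 0.188) failed without any of the libraries but wild type 2.

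At the other stages no list gene passed limma. Of 62 measured at E2.5, 21 had an unadjusted p under 0.05 in limma, beside 1444 of all 7082 genes. There edgeR passed 3 of the 62, namely Tfrc, Lpcat3 and Pcyt2, all higher in null embryos. Among all genes edgeR passed 129 as higher and 50 as lower. DESeq2 passed these 3 and also Chka and Syne2, all higher, beside 154 higher and 78 lower among all genes. Tfrc, the transferrin receptor, had a wild type level of 129 ± 16.0 CPM and a null level of 208 ± 24.9 CPM at E2.5 (limma adjusted p = 0.0557). Pcyt2 was at 123 ± 14.8 and 179 ± 13.6 CPM there (limma adjusted p = 0.0776). At E4.5, 12 of 67 had an unadjusted p under 0.05 in limma, beside 985 of all 6545 genes. Of the list genes edgeR passed 0 there, beside 42 of all genes. DESeq2 passed 2, Slc44a1 as lower and Akr1b8 as higher, beside 27 higher and 85 lower among all genes. Genes outside the naming rule (Tfrc, Lpcat3, Chka, Syne2, Akr1b8, Pcbp1 and Slc44a2, and the markers Nanog and Tspan8 below) were named after their values were seen.

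Cell type markers differed between the genotypes at E3.75 as well. The 10 trophectoderm markers, of which 1 (Tspan8) passed as lower, summed to 8544 to 9703 CPM in wild type libraries and to 7252 to 8219 CPM in null libraries. Of 7 epiblast markers measured of 10, 1 (Nanog) passed as higher and 5 as lower in null embryos. Their sums were 801 to 948 CPM in wild type and 749.8 to 814 CPM in null libraries. These sums overlapped, but the median log2 difference of the 7 epiblast markers was -0.86, so the sums do not describe most of them. Of 9 primitive endoderm markers measured of 10, 2 passed as higher and 4 as lower, and the sums were 1285 to 1444 CPM and 1478 to 1616 CPM. The median log2 difference of these 9 markers was -0.98, so the higher sums of the null libraries do not describe most of them. Of 19 maternal blood and tract markers 5 were measured and 2 passed as higher, with sums of 150 to 231 CPM and 235 to 511 CPM. The part of these differences in the levels of the 6 genes was not tested.

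Levels of the 6 genes were compared with each other over the 18 libraries, which include those of E3.75 on which the genes were chosen. Pearson's r of log2(CPM + 1) was 0.98 between Timd2 and Guca1a, 0.93 between Timd2 and Zmpste24, 0.92 between Zmpste24 and Guca1a, and 0.90 between Timd2 and Pemt. It was 0.84 between Pemt and Guca1a and 0.71 between Pemt and Zmpste24. Upp1 ran against Pemt, with r = -0.91. Sord followed none of them, with r from -0.23 to 0.51. These values describe libraries that share stage, genotype and scaling. Among 5331 genes, Zc3hc1 (r = 0.985), Cdc14b (0.983) and Chpt1 (0.982) were most like Timd2. Lrpap1 (0.992), Isyna1 (0.986) and Sapcd2 (0.982) were most like Pemt, and Agpat2 (0.932), Clic3 (0.914) and Ptges (0.903) most like Sord. For Upp1 they were Gpx1 (0.985), Tubb5 (0.982) and Immt (0.981), and for Zmpste24 Ube2e3 (0.988), Sgpp1 (0.967) and Psmc2 (0.960). Psmd8 (0.984), Ak4 (0.983) and Trim43c (0.979) were most like Guca1a.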

How the data were processed

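RNA of whole mouse embryos was primed with oligo(dT) and amplified, with reads mostly near 3′ ends, per the labels' protocols. Values were deposited as CPM in 3 stage tables of 7082, 6648 and 6545 genes, each column scaled to a total of 1000000. Build mm9 and edgeR are named in the submitters' processing notes. The aligner is not given in the sources used here, nor are the counter, the annotation or the use of strand. Each gene reached about 10.3 CPM in 3 libraries of its table, so lower genes had been removed. The tables hold no coordinates, and start regions and neighbours come from RefSeq (GRCm38.p6) and GENCODE M21 (GRCm38).

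Because the files hold CPM, limma 3.58.1 (R 4.3.3) was fitted per stage to log2(CPM + 1), with its variance trend, as a two-sided test. p-values were adjusted by Benjamini-Hochberg over all genes of a stage, with a threshold of 0.05. This scale understates changes of low genes. Reads were recovered by dividing by the worth of 1 read, and 121650 of 121650 came out whole (tolerance 0.01). On these edgeR 4.0.16 and DESeq2 1.42.0 were run. Reads carry no stated molecular identifiers, and where embryos were not processed apart p-values measure spread between libraries.

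The 6 genes, the lists and the tests were chosen with earlier results of these data known. Named are the 6 genes, Pou5f1, up to 4 passing genes per pathway list at E3.75 (2 at other stages, otherwise the gene with the smallest p), the 3 genes most like each of the 6 among those with a mean of at least 10 CPM per table, and neighbours in the p order. Alternatives were pseudocounts of 0.1 and 5, a mean of at least 10 CPM, TMM and DESeq2 size factors, each library left out, the first 2 libraries, a replicate block, 1 fit over 18 libraries, and both count tests. CPM over the genes in all tables was added after seeing the data. Tests were checked on simulated reads.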

Additional observations from a re-analysis of the deposited data

How the results depend on the processing

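The 6 genes kept the sign of their difference at E4.5 under every alternative run. Of the 6, limma passed 0 at E2.5, and 1 (Guca1a) passed with TMM factors, DESeq2 size factors, edgeR and DESeq2, and 0 to 1 with 1 library left out. At E4.5 limma passed 0, edgeR 1, DESeq2 4, 1 fit over 18 libraries 4, and 0 to 3 passed with 1 library left out. The variance of the fit over 18 libraries comes partly from the E3.75 libraries that chose the genes. For the change from E2.5 to E4.5 none of the 6 passed in any of 20 alternatives.

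Over all genes at E2.5, limma passed 42, against 99 with TMM factors, 93 with DESeq2 size factors, 179 with edgeR, 232 with DESeq2, 139 in the fit over 18 libraries, 1 with the first 2 libraries and 1 to 773 with 1 library left out. At E3.75 it passed 545, against 288 with DESeq2, 213 in the fit over 18 libraries, 155 with the first 2 libraries and 209 to 652 with 1 left out. At E4.5 it passed 0, against 2 with TMM factors, 1 with a pseudocount of 5, 42 with edgeR, 112 with DESeq2, 221 in the fit over 18 libraries and 0 to 120 with 1 left out. For the change from E2.5 to E4.5 it passed 6, against 36 with edgeR, 78 with DESeq2, 0 with the first 2 libraries and 0 to 52 with 1 left out. The cause of these differences was not tested. Pathway list genes passing at E2.5 were 0 with limma and 3 with edgeR, and at E3.75 they were 10 with all libraries and 1 with the first 2.

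With a replicate block limma passed 30 genes at E2.5 and 438 at E3.75, and Guca1a at E2.5 had an adjusted p of 0.0821. Libraries of the same number did not deviate together (r from -0.03 to 0.13), and 2 of 6 libraries at E2.5 and 1 of 6 at E3.75 correlated best with their own number. A pairing was thus not seen, but with 3 libraries per group this check cannot exclude one. No paired analysis was possible at E4.5 or for the change between stages because the wild type columns of E4.5 carry no numbers. Depth limits Guca1a at E4.5 and Upp1 at E2.5, which rest on at most 27 and 36 reads per library.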
